A study of Mus musculus with 6 samples.

Results

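The 9 genes described here are targets of the transcription factor p53, measured in mouse embryonic stem (ES) cells with and without a small interfering RNA (siRNA): Plk2, Phlda3, Perp, Ccng1, Btg2, Ddit4l, Mdm2, Zmat3 and Trp53inp1. They are 9 of the 19946 genes that have a probe set (called a row) annotated with their symbol alone, and each has 1 such row among the 23410 rows annotated with at least 1 gene. The genes were chosen from their measured values on these same arrays, mainly for being higher in cells given the control siRNA than in untreated cells, and Plk2 and Ddit4l also for being higher with the siRNA against Lin28a than with the control siRNA. Their differences between either siRNA group and untreated cells are therefore a description and were not tested.

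The cells were the mouse ES cell line A3-1, grown in medium containing serum and LIF (leukaemia inhibitory factor, which maintains the undifferentiated state). One group received an siRNA against Lin28a (siLin28a) and one the control siRNA siGFP, whose target, the green fluorescent protein of a jellyfish, is not a mouse gene, in each case for 48 h, and the third was left untreated. Each group has 2 Affymetrix arrays, and each siRNA group received 1 siRNA duplex. The labels name no genetic change, no delivery reagent and no separate cultures behind the 2 arrays of a group, so the spread between them may be technical. Between siGFP and untreated cells, the siRNA itself, the reagent and the handling cannot be told apart. All values are log2 expression in steps of 0.1, as the authors deposited them, with the log2 scale read from their range.

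The siRNA duplexes are shown because their delivery is what separates the siRNA groups from untreated cells. Each strand is given 5′ to 3′ as the labels list it, without the 2 deoxythymidines at its end, and capitals mark a pair of bases that is not a Watson-Crick pair. The siLin28a strands paired at all 19 positions, and the siGFP strands at all but 1, which is a U:G pair.
siLin28a, strand listed first: gcagaagcgaagauccaaa
siLin28a, strand listed second: uuuggaucuucgcuucugc
siGFP, strand listed first: ugaauuagauggcgauguU
siGFP, strand listed second: Gacaucgccaucuaauuca

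The p53 protein, encoded by Trp53, is kept scarce in unstressed cells by the ubiquitin ligase Mdm2, and it accumulates after DNA damage and other stress. It then binds DNA as a tetramer and switches on genes of cell cycle arrest, cell death, DNA repair and metabolism, among them Mdm2 itself. Mouse ES cells are known for p53 protein that is abundant and largely cytoplasmic, and for a weak arrest at the G1 checkpoint. Trp53 has no row of its own here and is not described.

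The p53 binding site is a pair of copies of a 10-base consensus, and the start regions of these genes were searched for it. The genes were listed as p53 targets, so matches in them do not bear on their being higher together. The 250 bases before the transcription start were taken from RefSeq (GRCm38.p6) for the 6 genes found in its promoter table, namely Plk2, Phlda3, Ccng1, Btg2, Ddit4l and Mdm2. The p53 consensus decamer reads the same on both strands, and an exact copy was found in 3 of the 6, Ccng1, Ddit4l and Mdm2, where 7.13% of all 32851 promoters of that length hold one. Only Ccng1 of the 6 had 2 adjacent copies with at most 1 mismatch in all, which 0.0761% of the promoters have. In the sequences the capitals mark the adjacent pair in Ccng1 and the exact decamer in Ddit4l and Mdm2. The Plk2 sequence is shown because this gene had the largest difference, and it holds no exact decamer. A match is a description of the letters, not a shown binding site. The p53 binding sites known for Mdm2 lie in its first intron, outside this window.
Ccng1, chr11:40755287-40755536, minus strand: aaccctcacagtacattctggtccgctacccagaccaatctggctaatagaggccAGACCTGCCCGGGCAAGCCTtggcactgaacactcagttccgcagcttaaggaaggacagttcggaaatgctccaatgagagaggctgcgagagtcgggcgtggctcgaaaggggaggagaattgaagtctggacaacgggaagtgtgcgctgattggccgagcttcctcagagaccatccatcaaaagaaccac
Ddit4l, chr3:137623557-137623616, plus strand: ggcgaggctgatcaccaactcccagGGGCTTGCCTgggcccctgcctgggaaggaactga
Mdm2, chr10:117710910-117710969, minus strand: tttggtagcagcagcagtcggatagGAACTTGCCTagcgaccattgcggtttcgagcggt
Plk2, chr13:110394794-110395043, plus strand: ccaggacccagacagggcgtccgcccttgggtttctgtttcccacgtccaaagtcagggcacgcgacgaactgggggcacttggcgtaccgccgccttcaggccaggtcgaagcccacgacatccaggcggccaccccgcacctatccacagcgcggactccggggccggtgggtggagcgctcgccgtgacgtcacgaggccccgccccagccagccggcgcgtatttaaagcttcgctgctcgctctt

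All 9 p53 target genes had a higher mean in both siRNA groups than in untreated cells. Over the 9 genes the median log2 fold change was 0.60 for siLin28a against untreated cells, from 0.45 to 1.60, and 0.45 for siGFP against untreated cells, from 0.25 to 1.00. Over all 23410 rows both medians were 0.00. Both siLin28a arrays lay above both untreated arrays for 9 of the 9 genes, where 11.1% of all rows did so. Both siGFP arrays lay above both untreated arrays for 8 of the 9, where 9.22% of all rows did so. Because these differences chose the genes, the counts carry no further weight. Both comparisons share the untreated arrays. The 2 arrays of a group differed by at most 0.4 for any of the genes. In a bulk culture a change in the number of cells of a type and a change in RNA per cell cannot be told apart.

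**Figure D1:**
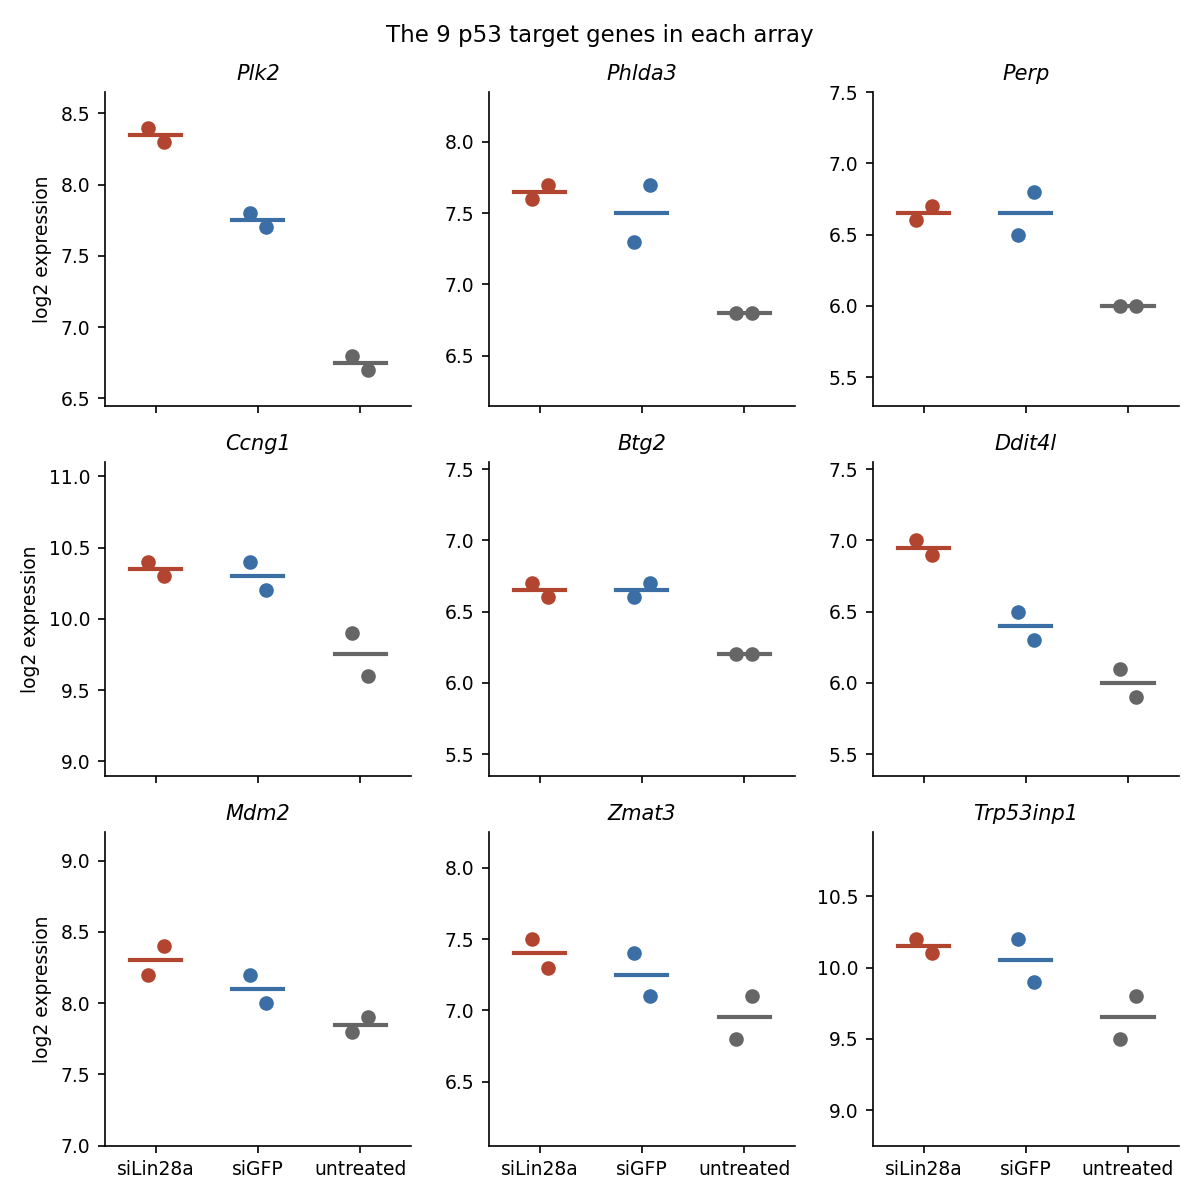
Each panel shows 1 gene, with log2 expression on the vertical axis (every panel spans the same range), a point for each array and a bar for the mean of the 2 arrays of siLin28a, siGFP and untreated cells. The untreated arrays are lowest in every panel, with 1 tie between a siGFP and an untreated array for Zmat3 at 7.1, and only Plk2 and Ddit4l show 3 separate levels.

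Among the genes of p53 feedback and cell cycle arrest, the levels with siLin28a and with siGFP lay close together. Mdm2, whose product marks p53 for degradation, had 8.2 and 8.4 in the siLin28a arrays, 8.2 and 8.0 in the siGFP arrays and 7.8 and 7.9 in the untreated arrays. Its log2 fold change against untreated cells was 0.45 with siLin28a and 0.25 with siGFP (SE 0.14, n = 2 per group), and the siGFP value was the smallest among the 9 genes. The siGFP and untreated arrays were 0.1 apart at their closest, which is 1 step of the deposited values.

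Ccng1 encodes cyclin G1, which acts with Mdm2 in the control of p53. It had 10.4 and 10.3 in the siLin28a arrays, 10.4 and 10.2 in the siGFP arrays and 9.9 and 9.6 in the untreated arrays. The log2 fold changes were 0.60 and 0.55 (SE 0.15), and neither siRNA group overlapped the untreated arrays. Ccng1 is the gene with the adjacent pair of p53 decamers printed above.

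Btg2 encodes an antiproliferative protein that binds the CCR4-NOT deadenylase, and it is also known as an immediate early gene. It had 6.7 and 6.6 in the siLin28a arrays, 6.6 and 6.7 in the siGFP arrays, with 6.2 for both untreated arrays. Both siRNA groups were thus 0.45 above untreated cells on the log2 scale (SE 0.12), with the same mean and the same pair of values.

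Of the genes of cell death, survival and RNA control, Phlda3 and Perp had the larger differences. Phlda3, whose product competes with the survival kinase Akt for membrane lipids, had 7.6 and 7.7 in the siLin28a arrays, 7.3 and 7.7 in the siGFP arrays, with 6.8 for both untreated arrays. Its log2 fold change was 0.85 with siLin28a and 0.70 with siGFP (SE 0.16). The siGFP arrays were further apart for Phlda3 than for any other of the 9 genes, and the lower of them was still 0.5 above the untreated arrays.

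Perp, a membrane protein of cell junctions and an effector of p53-dependent cell death, had 6.6 and 6.7 in the siLin28a arrays, 6.5 and 6.8 in the siGFP arrays, with 6.0 for both untreated arrays. The log2 fold change was 0.65 in both comparisons (SE 0.14). The siLin28a arrays lay between the siGFP arrays.

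Trp53inp1, a nuclear protein that promotes p53 activity and takes part in autophagy, had 10.2 and 10.1 in the siLin28a arrays, 10.2 and 9.9 in the siGFP arrays and 9.5 and 9.8 in the untreated arrays. The log2 fold changes were 0.50 and 0.40 (SE 0.16). Here the spread within a group reached 0.3, close to the size of the difference.

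Zmat3 encodes a zinc finger protein that binds RNA and affects the stability and splicing of transcripts. It had 7.5 and 7.3 in the siLin28a arrays, 7.4 and 7.1 in the siGFP arrays and 6.8 and 7.1 in the untreated arrays. The log2 fold changes were 0.45 and 0.30 (SE 0.17). Zmat3 was the only 1 of the 9 genes whose siGFP arrays reached down to an untreated array.

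The smaller differences depended on replicate 1. Without siGFP replicate 1 the log2 fold change of siGFP against untreated cells was 0.15 for Mdm2, 0.15 for Zmat3 and 0.25 for Trp53inp1. Without untreated replicate 1 it was 0.15 for Zmat3 and 0.25 for Trp53inp1. The other 6 genes moved by no more than 1.5 times without any 1 array, and no value of the 9 genes against untreated cells turned negative in a fit without 1 array.

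Plk2 and Ddit4l stood at 3 levels, lowest in untreated cells and highest with siLin28a. Plk2, a polo-like kinase of centriole duplication and the stress response, had 8.4 and 8.3 in the siLin28a arrays, 7.8 and 7.7 in the siGFP arrays and 6.8 and 6.7 in the untreated arrays. Its log2 fold change against untreated cells was 1.60 with siLin28a, a 3.03-fold higher level, and 1.00 with siGFP, a 2.0-fold higher level (SE 0.12). Against untreated cells, 4 of the 23410 rows had a larger fold change than Plk2 with siLin28a and 9 with siGFP. Plk2 was chosen on such values, so this rank is a description and carries no further weight.

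Ddit4l encodes an inhibitor of mTOR signalling, the pathway that couples growth to nutrients. It had 7.0 and 6.9 in the siLin28a arrays, 6.5 and 6.3 in the siGFP arrays and 6.1 and 5.9 in the untreated arrays. The log2 fold change against untreated cells was 0.95 with siLin28a and 0.40 with siGFP (SE 0.14). For Ddit4l the step between the siRNA groups was larger than the step between siGFP and untreated cells, whereas for Plk2 it was smaller.

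Setting siLin28a against siGFP compares cells that all received an siRNA, with Lin28a as the intended difference. Lin28a, the targeted gene, had 7.4 in each siLin28a array, against 9.1 and 9.4 in the siGFP arrays as well as in the untreated arrays. Plk2 and Ddit4l were chosen partly on this difference, so only the other 7 p53 target genes were read against the test. Of these 7, 0 passed an adjusted p of 0.05 by limma over all rows, where 0.0% of rows passed, and 0 had an unadjusted p under 0.05, where 4.05% of rows did. Ordinary least squares also passed 0 of all rows after adjustment. This comparison holds no untreated array, but it shares the siGFP arrays with the comparison that chose the genes. A choice for high siGFP values lowers the difference of siLin28a to siGFP, and the genes seen to be higher with siLin28a were set aside. As no row passed, Lin28a included, the adjusted threshold could not single out any of the 7. The counts for the 7 were thus partly set by the choice, and no conclusion is drawn from them.

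Plk2 was 0.60 higher (SE 0.12) and Ddit4l 0.55 higher (SE 0.14) in siLin28a than in siGFP cells, on the log2 scale. They were the only 2 of the 9 genes with both siLin28a arrays above both siGFP arrays, where 9.03% of all rows did so, and 0 of the 9 had both below, where 11.8% of all rows did so. For Plk2 and Ddit4l these values are a description, and no p is given. Rows with untreated, siGFP and siLin28a arrays stacked in that order without overlap made up 0.543% of all rows.

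The other 7 genes differed little between the siRNA groups. Their log2 fold changes for siLin28a against siGFP were between 0.00 and 0.20, with a median of 0.10, and 5 were above 0 while Perp and Btg2 were at 0.00. For all 7 the siLin28a and siGFP arrays overlapped or touched, and the adjusted p by limma was between 0.953 and 1. Their unadjusted 95% intervals together spanned −0.34 to 0.57, and each held 0. The intervals rest on the spread between the 2 arrays of a group, which may be technical. They also use the siGFP arrays that chose the genes, so no size of difference is excluded by them. Without 1 array their values lay between −0.15 and 0.35. The sign turned to −0.05 for Phlda3 once siGFP replicate 1 was left out, and to −0.05 for Ccng1 and Trp53inp1 once siGFP replicate 2 was left out. Perp and Btg2, at 0.00 with all arrays, took small values on either side of 0, down to −0.15 for Perp. Over the 9 genes the median was 0.15, against 0.00 over all rows, and it ranged from 0.05, with siLin28a replicate 1 left out, to 0.25, with siGFP replicate 1 left out.

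**Figure D2:**
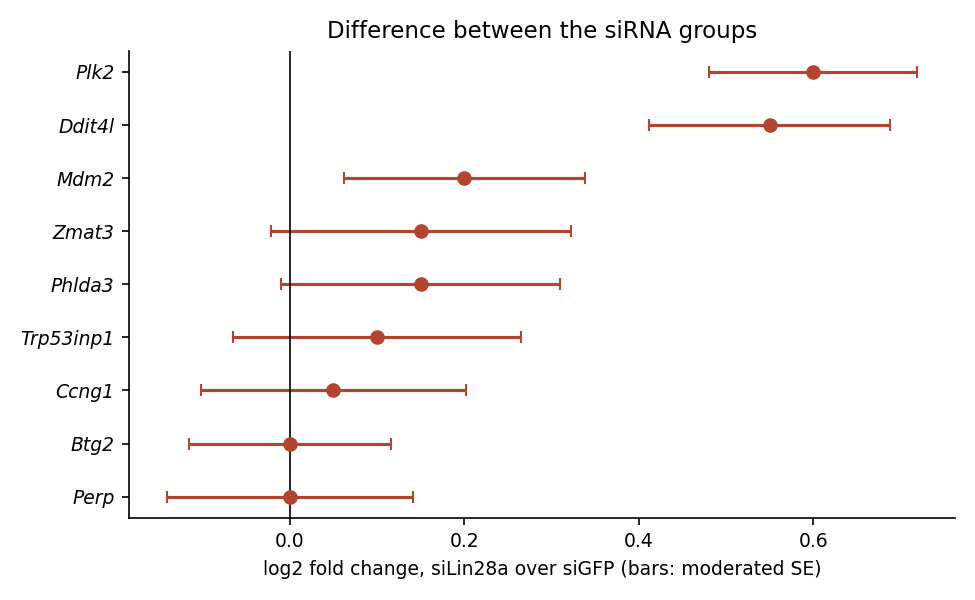
The points give the log2 fold change of siLin28a over siGFP (horizontal axis) for each of the 9 genes (vertical axis), and the bars are limma's moderated SE with 2 arrays per group. Plk2 at 0.60 and Ddit4l at 0.55 lie apart from the other 7 genes, which lie between 0.00 and 0.20.

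Markers of the ES cell state had lower means with siLin28a in the same comparison. Apart from Lin28a, 15 of 15 listed ES cell markers were lower in siLin28a than in siGFP cells, with a median log2 fold change of −0.30, and 10 of the 15 had both siLin28a arrays below both siGFP arrays, where 11.8% of all rows did so. By limma over all rows 0 of the 15 passed, and 7 had an unadjusted p under 0.05, where 4.05% of all rows did. The median was −0.40 to −0.30 without 1 array and −0.35 to −0.19 under the other alternatives. The upper quartile over all rows was 7.0 and 7.1 in the siLin28a arrays and 7.2 in the others. These markers are bright, and no comparison with rows of like brightness was made. The median over the same 15 was −0.05 for siGFP against untreated cells, with 6 higher, 8 lower and 1 equal. Their part in the levels of Plk2 and Ddit4l was not tested. A total of 53 markers of fibroblasts, primitive endoderm, trophoblast, neural cells and mesoderm had a median of 0.05 in siLin28a against siGFP and of 0.00 in siGFP against untreated cells. Of the 53, 12 (22.6%) had both siLin28a arrays above both siGFP arrays, where 9.03% of all rows did so. Both lay below for 6 of the 53, where 11.8% of all rows did so. The 9 neural markers among the 53 ranged from −0.55 to 0.65 in that comparison. By limma 0 of the 53 passed, and 6 had an unadjusted p under 0.05, where 4.05% of all rows did. Their median level was between 5.2 and 5.4 in the siLin28a arrays, between 5.3 and 5.4 in the siGFP arrays and between 5.3 and 5.4 in the untreated arrays, near the median of 5.2 to 5.3 over all rows of an array. The 16 ES cell markers had medians of 9.55 in both siLin28a arrays, 9.95 to 10 in the siGFP arrays and 9.95 to 10.2 in the untreated arrays.

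A further 65 genes reported as p53 targets were listed, and 58 of them have a row of their own. Cdkn1a, Bax and Gdf15 are among those that do not. The list was written with earlier results of these data known, so its counts are a description and not independent support. Against untreated cells, siGFP cells had higher means for 41 of the 58, lower means for 13 and equal means for 4, with a median log2 fold change of 0.15. Both siGFP arrays lay above both untreated arrays for 22 of the 58 (37.9%), where 9.22% of all rows did so, and below them for 3, where 8.46% did so. By limma 0 of the 58 passed over all rows in this comparison, and 8 had an unadjusted p under 0.05, where 3.52% of all rows did. With siLin28a against untreated cells 39 were higher and 13 lower, with the same median of 0.15. Without untreated replicate 1 the median was 0.10 for either siRNA group, as it was for siLin28a without siLin28a replicate 2, and the comparisons again share the untreated arrays.

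The further targets are given here by role. Of 14 genes of DNA repair and metabolism, 11 were higher in siGFP than in untreated cells, with a median of 0.30 (0.15 without untreated replicate 1), and of 13 secreted or surface proteins and related transcripts 12 were higher, with a median of 0.25 (0.15 without siGFP replicate 2). Of 15 genes of arrest and feedback 10 were higher, with a median of 0.10 (0.00 without untreated replicate 1). Of 16 genes of cell death 8 were higher and 6 lower, with a median near 0 at 0.025 (−0.025 without untreated replicate 1, 0.10 without untreated replicate 2, 0.075 without siGFP replicate 1 and −0.05 without siGFP replicate 2). Both siGFP arrays were above both untreated arrays for 10 of the 14 genes of repair and metabolism (71.4%). The same held for 8 of the 13 secreted or surface genes (61.5%). It held for 2 of the 15 genes of arrest and feedback (13.3%) and 2 of the 16 of cell death (12.5%). Over all rows the share was 9.22%. For 3 of the 16 genes of cell death both siGFP arrays lay below, where 8.46% of all rows did so. Whether these lists differ from each other was not tested.

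**Figure D3:**
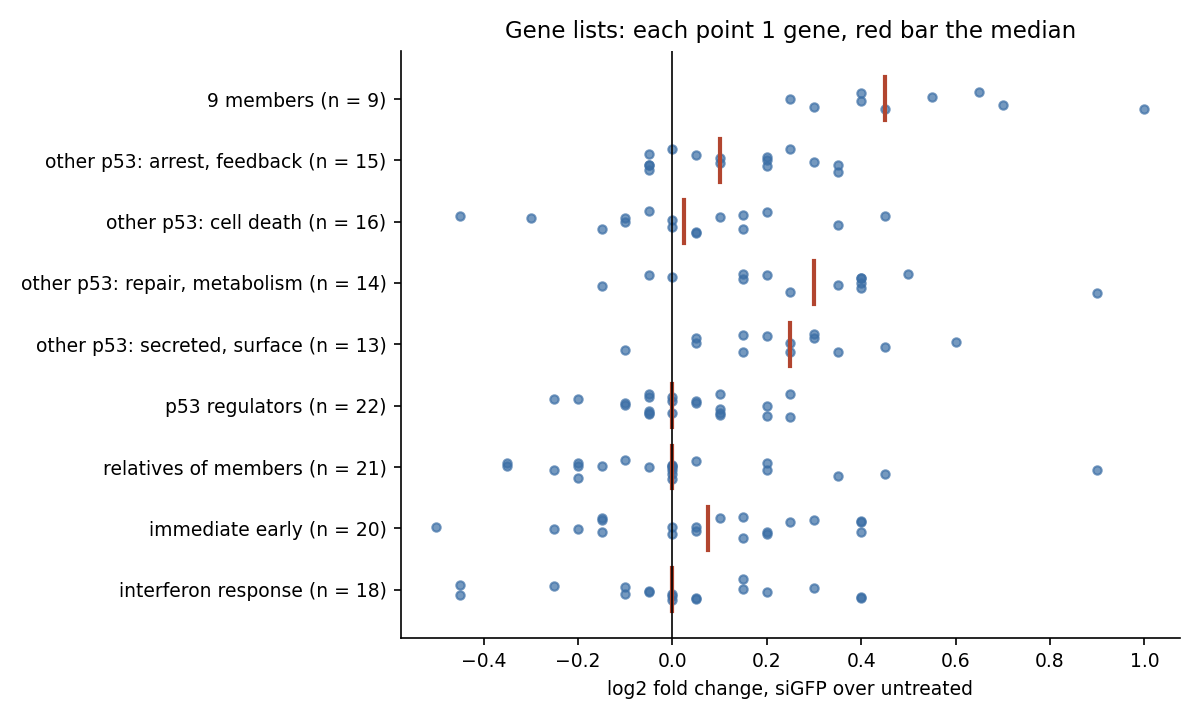
Each point is the log2 fold change of siGFP over untreated cells (horizontal axis) for 1 gene of a list (vertical axis, with the number of measured genes), and the red bar is the list's median. The 9 genes chosen on this same difference lie between 0.25 and 1.00, while the lists of p53 regulators, relatives and interferon genes have medians of 0.00.

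Ddit4, which like Ddit4l inhibits mTOR signalling, had the largest difference among the 58. It had 8.2 and 8.0 in the siLin28a arrays, 8.2 and 7.7 in the siGFP arrays and 7.1 and 7.0 in the untreated arrays, a log2 fold change of 1.05 and 0.90 against untreated cells. Unlike Ddit4l, its siRNA groups overlapped. Epha2, a receptor tyrosine kinase, had 9.0 and 9.1 in the siLin28a arrays, 8.9 and 8.8 in the siGFP arrays and 8.2 and 8.3 in the untreated arrays. Ephx1, an epoxide hydrolase, had 8.0 and 8.1 in the siLin28a arrays, 8.3 and 7.7 in the siGFP arrays and 7.4 and 7.6 in the untreated arrays. Eda2r, a receptor of the tumour necrosis factor family, had 7.5 and 7.9 in the siLin28a arrays, 7.7 in each siGFP array and 7.3 and 7.2 in the untreated arrays. Both siRNA groups thus stood above untreated cells for all of Ddit4, Epha2, Ephx1 and Eda2r, as for the 9 genes.

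Other listed targets had different patterns. Lif, the gene of the cytokine that is also in the medium, had 4.5 in each siLin28a array, 4.9 in each siGFP array and 4.4 and 4.5 in the untreated arrays. Tnfrsf23, a decoy receptor of the tumour necrosis factor family, had 4.4 and 4.3 in the siLin28a arrays, 3.8 and 4.0 in the siGFP arrays and 4.4 and 4.3 in the untreated arrays. For both of them siGFP stood apart while siLin28a and untreated cells overlapped. Both are dim, with all values below the median of 5.2 to 5.3 over all rows of an array. Gadd45a, a stress gene of growth arrest and DNA repair, had 7.5 and 8.0 in the siLin28a arrays, 8.1 and 8.4 in the siGFP arrays and 8.1 and 7.8 in the untreated arrays, a log2 fold change of −0.50 (SE 0.22) for siLin28a against siGFP. Rrm2b, a subunit of ribonucleotide reductase, and Tigar, a regulator of glycolysis, had −0.35 each in that comparison (SE 0.12 and 0.23). Between the siRNA groups the 58 genes had a median of 0.00, with 28 higher, 23 lower and 7 equal. By limma 0 of the 58 passed, and 3 had an unadjusted p under 0.05, where 4.05% of all rows did.

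**Figure D4:**
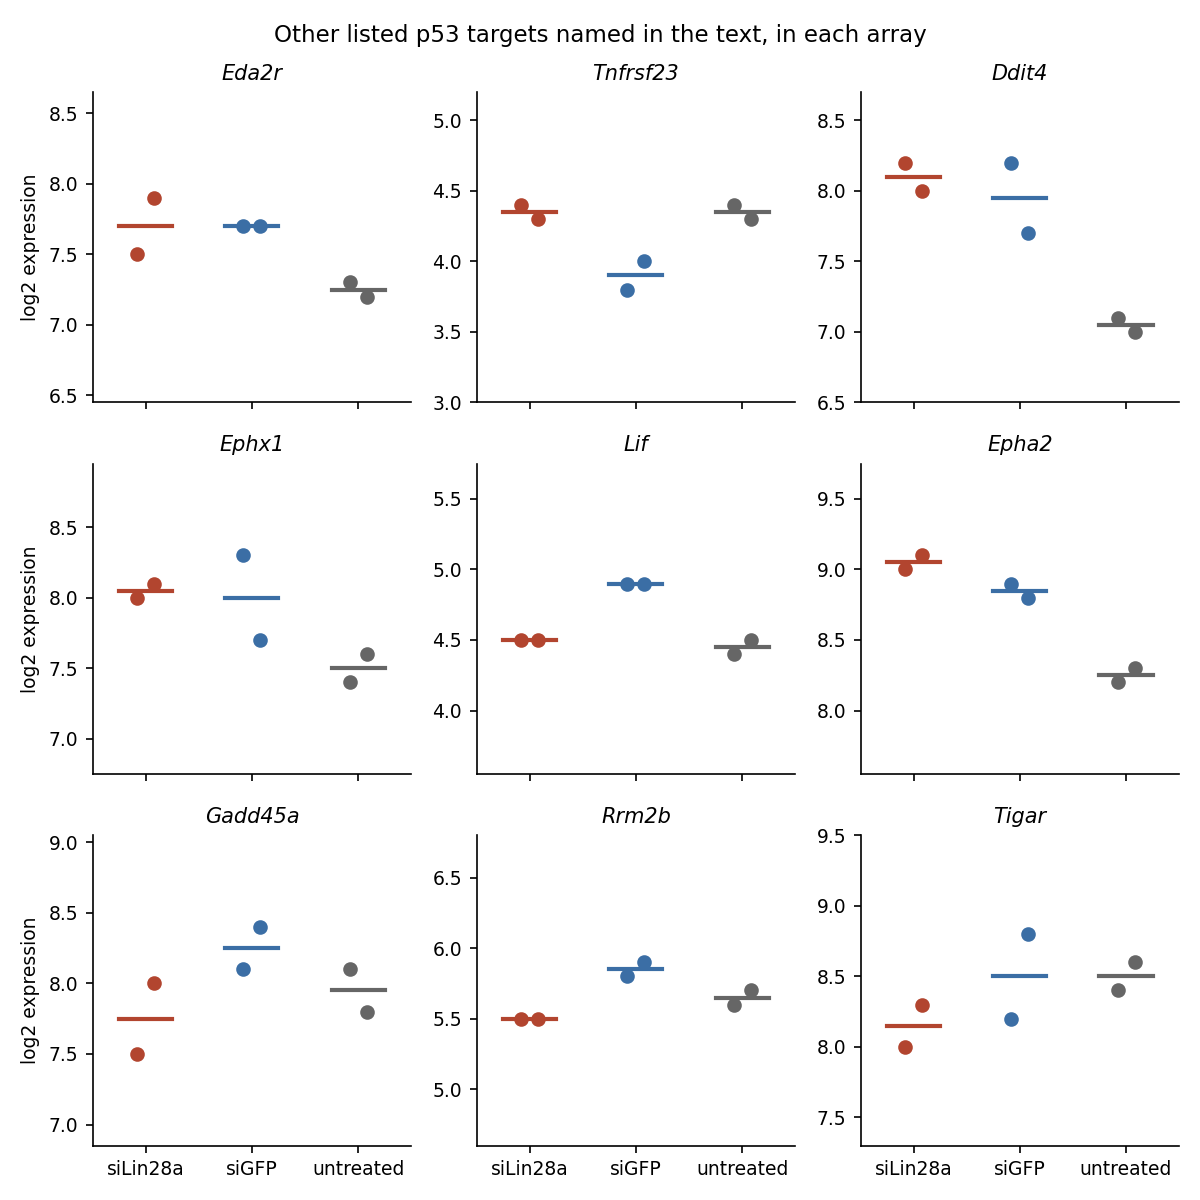
Each panel shows 1 of the further p53 targets named here, with log2 expression on the vertical axis (every panel spans the same range), a point for each array and a bar for the mean of the 2 arrays of siLin28a, siGFP and untreated cells. Ddit4, Epha2, Ephx1 and Eda2r are higher in both siRNA groups than in untreated cells. Lif is higher and Tnfrsf23 lower in siGFP cells alone, both at levels below the median over all rows of an array.

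Genes that act on p53 showed no common direction. Of 22 measured regulators, such as kinases of the DNA damage response and cofactors, 10 were higher in siGFP than in untreated cells, 9 lower and 3 equal, with a median of 0.00 (from −0.05 to 0.10 without 1 array). Trp53bp1, a DNA damage response protein that binds p53, had 8.2 in each siLin28a array, 8.0 and 7.9 in the siGFP arrays, with 7.7 for both untreated arrays, 3 separate levels as for Plk2. Chek1, a checkpoint kinase, had a log2 fold change of −0.25 for siGFP against untreated cells and Prkdc, the catalytic subunit of DNA-dependent protein kinase, had 0.25, and for both the arrays of these groups overlapped.

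Relatives of the 9 genes by sequence or family were listed to see whether whole families moved. Of 21 measured relatives 6 were higher in siGFP than in untreated cells, 9 lower and 6 equal, with a median of 0.00 (from −0.10 to 0.00 without 1 array). Both siGFP arrays lay above both untreated arrays for 2 of the 21, Ddit4 and the Btg2 relative Btg1 (log2 fold change 0.35), a share of 9.52% that is near the 9.22% of all rows. Ccng2, the relative of Ccng1, had 6.6 in each siLin28a array, 6.8 and 6.5 in the siGFP arrays and 6.5 and 5.9 in the untreated arrays. Plk1, Phlda2 and Mdm4 had log2 fold changes of −0.20, −0.35 and 0.00. Plk3, Ddit4 and Mdm4 are also listed among the further p53 targets. Of the 18 other relatives 4 were higher, 9 lower and 5 equal in siGFP against untreated cells, with a median of −0.025. Both siGFP arrays lay above both untreated arrays for 1 of the 18 (5.56%), beside 9.22% of all rows. The difference between the 9 genes and their relatives was not tested.

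Lists of other responses to serum or RNA were set beside the 9 genes. Of 20 immediate early genes 12 were higher in siGFP than in untreated cells and 6 lower, with a median of 0.075 (0.025 without siGFP replicate 2 and 0.15 without siGFP replicate 1). For 6 of the 20 (30.0%) both siGFP arrays lay above both untreated arrays, where 9.22% of all rows did so. For 1 of the 20 both lay below, where 8.46% of all rows did so. By limma over all rows 0 of the 20 passed, and 4 had an unadjusted p under 0.05, where 3.52% of all rows did. The transcription factor Jun and the phosphatase Dusp1 had 0.40 each, with both siGFP arrays above both untreated arrays. Atf3, a stress-induced transcription factor, also had 0.40 (SE 0.29), but with 6.3 and 5.5 in the siGFP arrays and 5.5 in both untreated arrays only siGFP replicate 1 was higher. Egr1, a transcription factor, had −0.50. Of 18 measured interferon response genes 8 were higher and 7 lower, with a median of 0.00 (0.20 without siGFP replicate 1, 0.10 without untreated replicate 2 and −0.025 without siGFP replicate 2). For 3 of the 18 (16.7%) both siGFP arrays lay above both untreated arrays, where 9.22% of all rows did so. For 2 of the 18 both lay below, where 8.46% of all rows did so. Oas2, an enzyme that senses double-stranded RNA, and the receptor Tlr3 had −0.45 each. The interferon list was dim, with array medians of 4.25 to 4.45 for siLin28a, 4.3 to 4.5 for siGFP and 4.15 to 4.35 for untreated cells. The median over all rows of an array was 5.2 to 5.3. The part of these responses in the levels of the 9 genes was not tested.

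The rows most like the mean profile of the 9 genes were found by distance over the 6 arrays, each row taken relative to its own mean, among 9812 other rows of 1 gene with a mean of at least 6. The nearest was Epha2 at a distance of 0.148 on the log2 scale, followed by Lama5 (0.202), a laminin chain, Piezo1 (0.219), a mechanosensitive ion channel, Adgrl2 (0.226), an adhesion receptor, and Niban1 (0.227). The 9 genes themselves lay between 0.294 (Ccng1) and 0.884 (Plk2) from their own mean profile, which spans 0.744 between its lowest and highest array. Lama5 had 8.2 in each siLin28a array, 8.2 and 8.1 in the siGFP arrays and 7.6 and 7.7 in the untreated arrays. These rows were picked for their likeness, so their profiles are a description over 6 arrays.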

How the data were processed

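Values of 6 Affymetrix arrays (3 groups of 2) were used. The deposited log2 values were made by the authors with Affymetrix Expression Console and RMA, per the submitters' processing notes. No software version or genome build is stated there. The log2 scale was read from the range of the values, which are in steps of 0.1 and were not normalized further. RMA includes quantile normalization, which is meant to remove changes shared by most genes. The deposited arrays were not fully aligned, with an upper quartile of 7.0 and 7.1 in the siLin28a arrays and 7.2 in the others. Arrays carry no depth, and their number limits the precision.

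Rows were named from the platform annotation, with GRCm38.p6 RefSeq symbols for older names. Linear models and moderated two-sided tests from limma 3.58.1 (R 4.3.3) were fitted to the 23410 annotated rows of all 6 arrays, with 3 residual degrees of freedom, a prior of 3.19 and Benjamini-Hochberg adjustment over all rows at 0.05. The code was tested on simulated data. SE are limma's moderated errors. The 9 genes and the gene lists were chosen with earlier results of these data known. Named beyond them were the listed p53 targets with the 4 largest log2 fold changes in size in siGFP against untreated and in siLin28a against siGFP, the 2 largest of other lists in siGFP against untreated (ties kept), any relative, and the 5 rows nearest in profile. A gene with several rows is given by its brightest row. Alternatives changed the prior, the normalization, the rows, the arrays fitted and the replicate number as a block.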

Additional observations from a re-analysis of the deposited data

How the results depend on the processing

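The counts of rows passing limma over all rows were 0 in each comparison and stayed at 0 under the alternatives tried, except that a robust prior gave 1 for siLin28a against siGFP and 7 for siLin28a against untreated cells, and cyclic loess gave 1 and 5. None of the 7 genes other than Plk2 and Ddit4l passed for siLin28a against siGFP under any alternative run. Between siLin28a and siGFP the log2 fold changes turned to −0.05 for Phlda3 without siGFP replicate 1 and for Ccng1 and Trp53inp1 without siGFP replicate 2, and without 1 array they spanned −0.05 to 0.35 for Phlda3, −0.05 to 0.15 for Ccng1 and −0.05 to 0.25 for Trp53inp1. Without 1 array the median over the 9 genes was 0.55 to 0.65 for siLin28a against untreated, 0.45 to 0.50 for siGFP against untreated and 0.05 to 0.25 for siLin28a against siGFP. The alternatives for the 58 further p53 targets were chosen after seeing the data, and their median for siLin28a against siGFP, 0.00, was 0.0734 after cyclic loess and 0.0833 when quantile normalized again. The cause of these moves was not tested. Replicate numbers are shared by the groups but nothing in the labels pairs the arrays; same-numbered arrays had deviations correlated at 0.357 (siLin28a and siGFP), 0.154 (siGFP and untreated) and −0.0352 (siLin28a and untreated), and with the replicate block 0 rows passed in each comparison, 1350, 1255 and 1933 rows in the same order had an unadjusted p under 0.05 (949, 825 and 1508 without it), and the medians of the 9 genes were 0.45 (siGFP against untreated) and 0.60 (siLin28a against untreated). With 2 arrays per group, whose spread may be technical, differences may have gone undetected.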

Other observations

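Lif, Tnfrsf23, Oas2 and Egr1 share a pattern that the 9 p53 target genes do not show, in which siGFP cells stand apart and siLin28a cells overlap untreated cells. Oas2 had 5.0 in each siLin28a array, 4.5 and 4.6 in the siGFP arrays, with 5.0 for both untreated arrays. Egr1 had 7.2 in each siLin28a array, 7.0 and 6.6 in the siGFP arrays and 7.1 and 7.5 in the untreated arrays. Lif, Tnfrsf23 and Oas2 are dim, below the median of 5.2 to 5.3 over all rows of an array. Every group mean of the 9 p53 target genes was 6.0 or more, so signal level differs as well. Over all 23410 rows, both siGFP arrays lay above the 4 other arrays for 656 rows (2.80%) and below them for 566 (2.42%). Both untreated arrays lay below the 4 others for 962 rows (4.11%), as they did for 8 of the 9 p53 target genes, which were chosen on such values, and above them for 839 (3.58%). These genes were singled out after their values were seen, and the pattern was not tested.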
